A study of Mus musculus with 16 samples.

Results

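S100a4, S100a6, Anxa2 and Lgals1 are 4 genes for calcium-binding and sugar-binding proteins. They were taken by their exact symbols from the authors' deposited tables of transcripts changed at least 2-fold after myocardial infarction. Each symbol marked 1 probe set, so there were 4 members among 41345 probe sets and among 269 genes with a symbol of their own in those tables. All 4 came from the table of myosin-specific T cells, and 0 of 4 from the table of the recipients' own T cells. The difference between infarction and sham operation in myosin-specific cells therefore chose the members, and it is described below without a test.

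The arrays come from CD4+ T cells sorted from heart-draining mediastinal nodes on day 7. The recipients were wild-type male BALB/c mice aged 8 to 12 weeks and carrying Thy1.2. In the infarction group the left-anterior descending artery of the heart was tied off, in the sham group the chest was opened only, and all mice received buprenorphine. TCRM cells are CD4+ T cells with the Thy1.1 allele and a myosin-specific receptor, taken from naive TCR-M donors and injected on the day before surgery. ENDO cells were sorted in parallel from the same animals and are the CD4+ T cells that each recipient already had, so values of TCRM and ENDO cells are not independent of each other. There were 5 TCRM infarction, 3 TCRM sham, 5 ENDO infarction and 3 ENDO sham arrays. Whether a number in the titles marks the same mouse in both populations is not stated. How the TCR-M receptor transgene is driven is not stated in the labels either.

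S100 proteins are small calcium sensors, annexins bind membrane phospholipids when calcium is present, and galectins bind β-galactosides on glycoproteins. In T cells, transcripts of some genes of these families are known to be low in naive cells and higher in activated, effector and memory cells. Whether cells were memory cells was not measured, so the genes are referred to by name. The fold of 2 was the authors' threshold, and in the authors' deposited table Lgals1 stood at 2.01 and S100a4 at 2.04, just inside it, with Anxa2 at 2.35 and S100a6 at 3.99. The false discovery rate in the authors' deposited table was 0.173 to 0.308 for the 4 genes. Probe sets just outside it are unnamed here.

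On the TCRM arrays median log2 signal lay between 5.37 and 5.43, with an SD over probe sets of 1.92 to 2.05. On the ENDO arrays the medians were 5.61 to 5.79 and the SDs 1.72 to 1.86. Because these ranges do not overlap, levels were not tested across the populations. ENDO infarction array 5 correlated least with the other arrays of its population (mean r = 0.891). That array and TCRM infarction array 5 are called sham in their source names and infarction in their titles. Bi-weight averages over the titles met the infarction averages of the authors' deposited tables within 0.01 for 196 of 196 TCRM and 274 of 274 ENDO probe sets, against 19 and 35 over the source names. The authors thus averaged by the titles, which were used here, and which of the labels is right was not tested. Probe sets of Cd4 and Cd3e are unnamed here, so the labelled cell type was not checked against those markers. Of 11 T cell identity genes only Trat1 was named. Its mean was lower after infarction in TCRM cells, and its values are given below. In bulk samples such as these, fewer cells of a type and less RNA per cell cannot be told apart.

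S100a4 (metastasin, a protein that binds non-muscle myosin) and S100a6 (calcyclin) lie on mouse chromosome 3 with S100a5 as the single gene between them in RefSeq. S100a4 read 6.21, 6.97 and 6.91 (log2 signal) on the TCRM sham arrays and 8.49, 8.65, 7.64, 7.84 and 7.88 on the TCRM infarction arrays. Each of the 5 infarction arrays was higher than each of the 3 sham arrays, with a gap of 0.67 between the groups. The means were 8.10 ± 0.44 (log2, SD, n = 5) and 6.70 ± 0.42 (SD, n = 3), a difference of 1.40 on the log2 scale, or 2.64-fold.

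S100a6 showed the widest TCRM difference of the 4 genes. Its log2 signal was 6.10, 6.38 and 7.06 on the TCRM sham arrays and 8.95, 8.86, 7.79, 8.28 and 8.32 on the TCRM infarction arrays. The groups did not overlap, sham array 3 was the highest of its group and infarction array 3 the lowest of its own. The means were 8.44 ± 0.47 (log2, SD, n = 5) and 6.51 ± 0.49 (SD, n = 3), a difference of 1.93, or 3.80-fold.

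Anxa2 (annexin A2, which forms a complex with S100a10 and binds plasminogen at the cell surface) lies on chromosome 9. Its log2 signal was 6.40, 6.15 and 6.38 on the TCRM sham arrays and 8.21, 7.80, 7.25, 7.70 and 7.13 on the TCRM infarction arrays. The sham arrays were close together, while the infarction arrays spread over more than 1 log2 unit. The means were 7.62 ± 0.44 (log2, SD, n = 5) and 6.31 ± 0.14 (SD, n = 3), a difference of 1.31, or 2.48-fold.

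Lgals1 (galectin-1, a secreted lectin known to limit activated T cells) lies on chromosome 15. Its log2 signal was 10.32, 9.84 and 10.61 on the TCRM sham arrays and 11.98, 11.35, 10.82, 11.45 and 10.84 on the TCRM infarction arrays. The groups did not overlap, but the gap between them was 0.20, narrower than for the other 3 genes. The means were 11.29 ± 0.48 (log2, SD, n = 5) and 10.26 ± 0.39 (SD, n = 3), a difference of 1.03, or 2.04-fold.

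In TCRM cells, grouped by the titles, the infarction arrays were all higher than the sham arrays for 4 of 4 members. The same held for 5.64% of the 28941 probe sets tested (10.3% were apart in either direction, and 49.7% had a higher mean after infarction), and since this contrast chose the members nothing is read from it. With each array left out in turn the TCRM difference stayed between 1.16 and 1.54 for S100a4 and between 1.72 and 2.20 for S100a6. It stayed between 1.16 and 1.43 for Anxa2 and between 0.82 and 1.21 for Lgals1. With infarction array 5 counted as sham, as in its source name, the groups overlapped for S100a4, S100a6 and Lgals1. That array read 7.88, 8.32 and 10.84, above the lowest remaining infarction arrays at 7.64, 7.79 and 10.82. For Anxa2 it read 7.13, below all remaining infarction arrays (lowest 7.25), and the groups stayed apart. The TCRM differences were then 1.16, 1.51, 1.23 and 0.996 for S100a4, S100a6, Anxa2 and Lgals1.

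**Figure D1:**
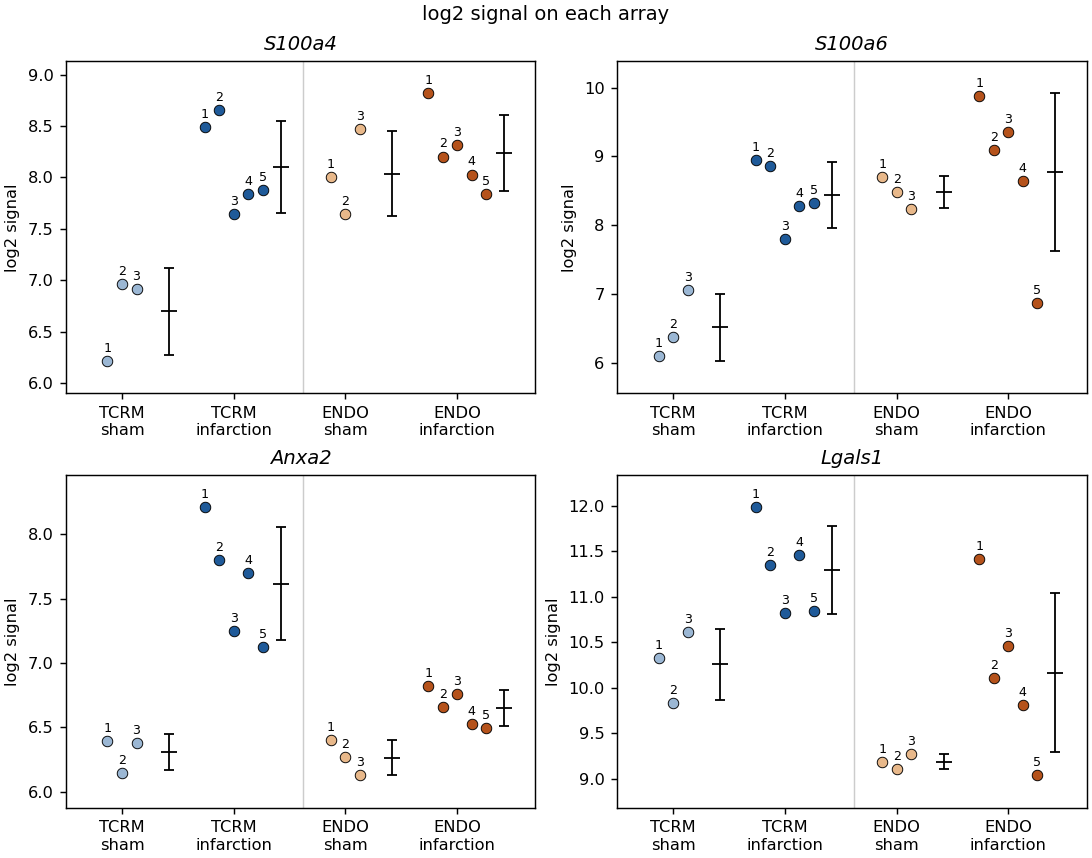
Log2 signal of the 4 genes (vertical axes) on each array in the 4 groups (horizontal axes). Points are arrays with their number, and the bars beside them are the group mean and SD (n = 3 sham, n = 5 infarction). TCRM infarction points sit above all TCRM sham points in every panel, and ENDO infarction points do so only for Anxa2.

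Promoter sequence is shown for the members with an entry in the RefSeq table, because these genes were higher together on the TCRM infarction arrays and the stretch just before the gene start is where a shared feature could be read. The windows are the 250 bases before the start on GRCm38.p6, plus strand, 5′ to 3′. Capitals mark the letters TATAAA (the TATA box) or TGANTCA (an AP-1 site), searched on both strands. Lgals1 was not in the table.
S100a4, chr3:90603520-90603769: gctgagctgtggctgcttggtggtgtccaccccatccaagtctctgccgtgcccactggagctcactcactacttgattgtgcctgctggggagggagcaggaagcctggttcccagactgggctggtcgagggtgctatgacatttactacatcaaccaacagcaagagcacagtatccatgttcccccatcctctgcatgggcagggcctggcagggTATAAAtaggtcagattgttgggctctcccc
S100a6, chr3:90612644-90612893: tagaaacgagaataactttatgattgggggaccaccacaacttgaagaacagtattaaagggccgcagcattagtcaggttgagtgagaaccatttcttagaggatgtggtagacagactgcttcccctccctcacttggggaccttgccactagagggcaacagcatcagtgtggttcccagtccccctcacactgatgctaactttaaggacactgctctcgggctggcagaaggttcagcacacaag
Anxa2, chr9:69453433-69453682: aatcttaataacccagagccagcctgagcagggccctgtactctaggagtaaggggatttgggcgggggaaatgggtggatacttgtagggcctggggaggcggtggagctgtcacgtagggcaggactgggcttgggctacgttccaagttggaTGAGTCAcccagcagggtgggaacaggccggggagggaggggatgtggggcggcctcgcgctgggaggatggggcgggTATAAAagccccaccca

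TATAAA begins 31 bases before the start of S100a4 and 17 bases before that of Anxa2, and is not in the S100a6 window. It is found in 12.4% of 32817 promoter windows of this length. TGANTCA is found in the Anxa2 window, beginning 95 bases before the start, and in 6.75% of all windows. The letters GGGCGG (GC box) occur 3 times in the Anxa2 window and in 32.7% of all windows, CACCC (KLF) in the S100a4 and Anxa2 windows and in 52.0%, and GGAAA (NFAT) in the Anxa2 window and in 55.6%. CACGTG (E-box) is in 6.02% of all windows and in none of these 3. No motif searched is in all 3 windows. These matches describe the letters and were not tied to binding or to signal.

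All 4 members were named through the TCRM contrast and none through the ENDO contrast, so the same genes were tested on the ENDO arrays. This is not an independent check. The choice was made with earlier results of these data known, and both populations came from the same animals. None of the 4 passed limma's test over all probe sets, and the estimates were 0.20 for S100a4, 0.29 for S100a6, 0.39 for Anxa2 and 0.98 for Lgals1 (log2, infarction minus sham). The means of all 4 were above sham after infarction, as for 50.9% of all tested probe sets. The median of the 4 was 0.34, beside 0.00 over all tested probe sets. The test called 0.888% of probe sets in ENDO cells, 0.352% as higher and 0.536% as lower. Each SE and interval given below uses the spread of a gene shared by the arrays of both populations.

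Lgals1 had the largest ENDO estimate of the 4. It read 9.19, 9.10 and 9.28 (log2 signal) on the sham arrays and 11.42, 10.11, 10.46, 9.81 and 9.04 on the infarction arrays. Infarction arrays 1 to 4 lay above all sham arrays and infarction array 5 below them, and the SD was 0.87 after infarction (n = 5) against 0.09 after sham operation (n = 3). The difference was 0.98 ± 0.40 (log2, SE), with a 95% interval of 0.12 to 1.83 and a limma adjusted p of 0.345, and 1.11% of tested probe sets had a higher difference. The exact 2-sided permutation test over the 56 splits of the 8 arrays gave p = 0.125. With limma array weights the difference was 1.10 and the adjusted p 0.0449. That setting called 1529 probe sets in ENDO cells, against 257 in the main fit, so the pass is not particular to Lgals1.

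Set beside each other, Lgals1 differed by 1.03 in TCRM cells and by 0.98 in ENDO cells. The difference of these responses was not tested, because it contains the contrast that chose the gene. It was 0.05 and lay between -0.23 and 0.37 with each array left out, so its sign rests on single arrays. With both arrays of number 5 counted as sham, as in their source names, the ENDO difference of Lgals1 was 1.30 (limma adjusted p = 0.0602) and the exact permutation p was 0.0286. All 4 remaining ENDO infarction arrays then lay above all 4 sham arrays.

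Anxa2 was the one member whose ENDO groups did not overlap. Its log2 signal was 6.40, 6.27 and 6.13 on the sham arrays and 6.82, 6.66, 6.76, 6.53 and 6.50 on the infarction arrays. The difference of 0.39 ± 0.20 (log2, SE; 95% interval -0.03 to 0.81) had a limma adjusted p of 0.488. This SE comes from 1 spread shared by all 16 arrays and does not measure the ENDO spread alone. The SD was 0.14 in both ENDO groups and 0.44 on the TCRM infarction arrays. The infarction arrays were likewise all higher than the sham arrays for 3.02% of tested probe sets in ENDO cells, and the groups were apart in either direction for 6.69%. The exact permutation p was 0.0179, the smallest that 56 splits can give, and 0.0571 without infarction array 4. Exact p-values of ENDO differences were not adjusted over the 4 genes, and the same test gave 0.482 for S100a4 and 0.732 for S100a6. The TCRM difference of Anxa2 was 1.31 and the ENDO difference 0.39, and the groups stayed apart in ENDO cells after quantile normalization of the 16 arrays and after median centring.

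S100a4 and S100a6 overlapped between the ENDO groups. S100a4 read 8.01, 7.64 and 8.47 (log2 signal) on the sham arrays and 8.82, 8.20, 8.32, 8.03 and 7.84 on the infarction arrays. Its difference was 0.20 ± 0.28 (log2, SE; 95% interval -0.40 to 0.80; limma adjusted p = 0.871), and it fell to 0.00 without sham array 2. The TCRM difference of S100a4 was 1.40, and the difference of responses was not tested, for the reason given above.

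S100a6 in ENDO cells was marked by a single array. Its log2 signal was 8.71, 8.49 and 8.24 on the sham arrays and 9.88, 9.10, 9.36, 8.64 and 6.87 on the infarction arrays. Infarction array 5 lay below every other ENDO array, infarction arrays 1 to 3 above all sham arrays. The difference was 0.29 ± 0.50 (log2, SE; 95% interval -0.78 to 1.36; limma adjusted p = 0.904). It was 0.76 without infarction array 5 (limma adjusted p = 0.221), 0.01 without infarction array 1, and 1.17 with infarction array 5 counted as sham (limma adjusted p = 0.189).

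**Figure D2:**
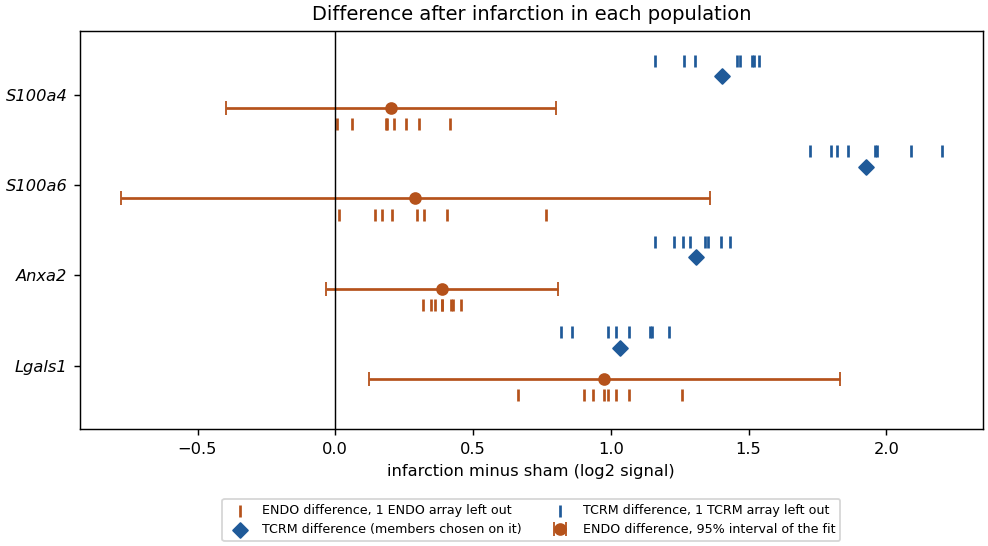
Infarction minus sham in log2 signal (horizontal axis) for each gene (vertical axis). Circles are ENDO differences with the 95% interval of the fit, diamonds are TCRM differences, and ticks are the same differences with 1 array of that population left out. The ENDO and TCRM values lie close together for Lgals1 (0.98 and 1.03) and furthest apart for S100a6 (0.29 and 1.93).

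The 4 genes ordered the ENDO infarction arrays in the same way. By log2 signal the order from the highest was array 1, 3, 2, 4 and 5 for 4 of 4 genes. That order was found for 5.45% of the 28941 tested probe sets and its opposite for 3.9%, where equally frequent orders would give 0.833%. The SD of log2 signal over an array's probe sets ran in the same order, and the array median in the opposite one. The part played by the spread of the arrays was not tested. By percentile within the array, which stretching or shifting an array's signal leaves as it is, the order held for S100a6, Anxa2 and Lgals1 and for 4.15% of tested probe sets, and arrays 2 and 4 changed places for S100a4 (89.8 on both).

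Across all 8 ENDO arrays, infarction and sham together, Lgals1 correlated with each of the other members. A difference between infarction and sham shared by both genes of a pair therefore also enters r and its p. The share of all tested probe sets that correlated as strongly with Lgals1 was not computed. Whether these values are particular to the members is therefore not known. Pearson's r was 0.793 with S100a4, 0.815 with S100a6 and 0.832 with Anxa2. The exact permutation p was 0.0172, 0.0160 and 0.00878, and 0.0344 for each after Benjamini-Hochberg adjustment over the 6 pairs computed (n = 8). Spearman's rho was 0.833, 0.881 and 0.786 (exact permutation p 0.0154, 0.00724 and 0.0279, adjusted p 0.0419 for each).

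Between the other members r was 0.630 for S100a4 and S100a6, 0.446 for S100a4 and Anxa2, and 0.561 for S100a6 and Anxa2. Their exact permutation p-values were 0.0914, 0.269 and 0.144, with adjusted p of 0.137, 0.269 and 0.173. Spearman's rho was 0.571, 0.476 and 0.810 in the same order (exact permutation p 0.151, 0.243 and 0.0218, adjusted p 0.181, 0.243 and 0.0419). S100a6 and Anxa2 thus passed by ranks and not by Pearson's r, and infarction array 5, low for S100a6, stood apart from the rest.

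Without the 2 arrays farthest from the median of the first gene, r was 0.428 for S100a4 with Lgals1, 0.871 for S100a6 with Lgals1 and 0.886 for Anxa2 with Lgals1, so the first of these rests on those arrays. It was 0.548 for S100a4 with S100a6, -0.221 for S100a4 with Anxa2 and 0.956 for S100a6 with Anxa2. After quantile normalization of the 16 arrays, chosen after seeing the data, r with Lgals1 was 0.626, 0.745 and 0.775 and no pair passed (adjusted p 0.123 to 0.192). With single ENDO arrays left out, the call was lost in 7 of 8 cases for S100a4 with Lgals1 and in 6 of 8 for S100a6 and for Anxa2 with Lgals1. The lowest r came without infarction array 1 (0.541, 0.738 and 0.790, adjusted p 0.414, 0.119 and 0.119).

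The spread of the arrays moved with S100a6 and, by Pearson's r only, with Lgals1. Over the 8 ENDO arrays the SD of log2 signal correlated with S100a6 at r = 0.843 (exact permutation p = 0.00414, adjusted p = 0.0166 over the 4 genes) and with Lgals1 at r = 0.769 (p = 0.0232, adjusted p = 0.0463). The values were 0.675 for Anxa2 and 0.415 for S100a4, which did not pass (exact permutation p 0.0711 and 0.306, adjusted p 0.0948 and 0.306). Spearman's rho was 0.929 for S100a6, 0.786 for Lgals1, 0.714 for Anxa2 and 0.452 for S100a4 (exact permutation p 0.00223, 0.0279, 0.0576 and 0.267, adjusted p 0.00893, 0.0559, 0.0768 and 0.267). Without infarction arrays 1 and 5, r was 0.788, 0.494, 0.655 and -0.257 in that order. All of these correlations pool infarction and sham arrays, whose Anxa2 values do not overlap.

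**Figure D3:**
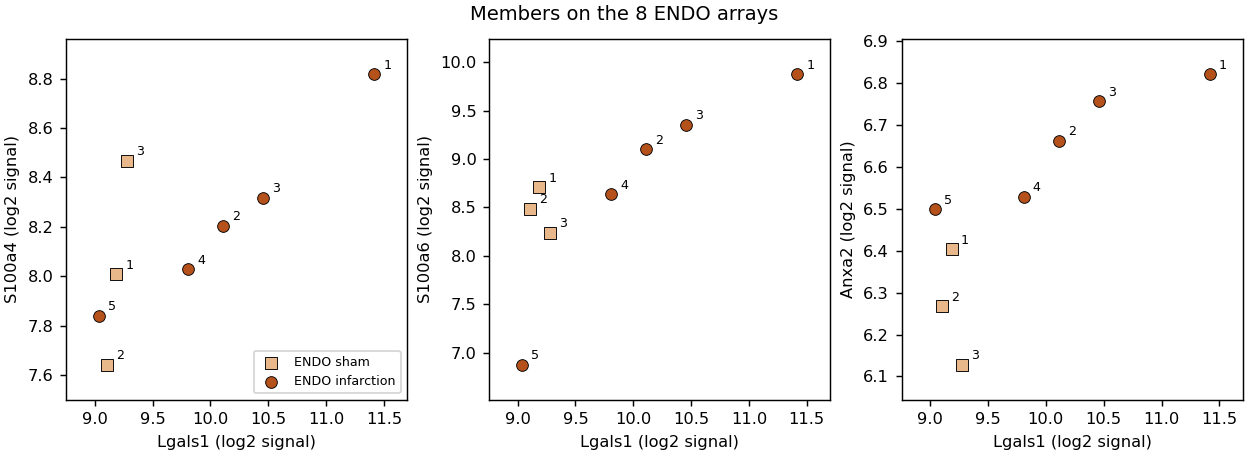
Log2 signal of S100a4, S100a6 and Anxa2 (vertical axes) against Lgals1 (horizontal axes) on the 8 ENDO arrays. Circles are infarction and squares sham arrays, with their numbers. Infarction array 1 is highest for both genes in each panel, and infarction array 5 is lowest for Lgals1 and S100a6.

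On the TCRM infarction arrays the members also tended to be high on the same arrays. Array 1 was above the group mean for 4 of 4 genes and the highest for S100a6, Anxa2 and Lgals1. Array 2 was above the mean for 4 of 4 and the highest for S100a4. Array 3 was below the mean for 4 of 4 and the lowest for S100a4, S100a6 and Lgals1, and array 5 was below it for 4 of 4 and the lowest for Anxa2. The mean deviation over the 4 genes was 0.55 on array 1, 0.30 on array 2, -0.04 on array 4, -0.32 on array 5 and -0.49 on array 3 (log2). How many of all tested probe sets deviated in this way was not computed, so whether the pattern is particular to the members is not known. The SD of log2 signal over an array's probe sets was also highest on arrays 1 and 2 (2.05 on both) and lowest on array 3 (2.03). The part played by this spread was not tested. No correlation is given for TCRM cells, because the choice of members sets their groups apart.

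Within-array percentiles place each gene among the 41345 probe sets of its own array and can be read in both populations. S100a4 stood at 73.0 ± 6.0 (percentile, SD, n = 3) on the TCRM sham arrays and at 89.1 ± 3.9 (n = 3) on the ENDO sham arrays, without overlap. After infarction the values were 87.3 ± 3.5 (n = 5) and 90.7 ± 1.6 (n = 5), and the groups overlapped. S100a6 went the same way, with 70.4 ± 7.1 in TCRM and 92.5 ± 1.0 in ENDO cells after sham operation and 89.9 ± 3.3 and 91.8 ± 8.3 after infarction. For both S100 genes, TCRM cells thus lay below the recipients' own cells after sham operation and overlapping with them after infarction. The share of all probe sets that were likewise apart between the populations was not computed. Whether this is particular to these genes is therefore not known.

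Anxa2 and Lgals1 followed another order. Anxa2 stood at 67.5 ± 2.3 (percentile, SD, n = 3) in TCRM and 63.5 ± 3.2 (n = 3) in ENDO cells after sham operation, with overlap, and at 82.7 ± 4.6 and 71.2 ± 1.8 (n = 5 each) after infarction, without overlap. Lgals1 stood at 97.8 ± 0.8 in TCRM and 95.6 ± 0.5 in ENDO cells after sham operation, without overlap, and at 99.1 ± 0.4 and 97.7 ± 1.3 after infarction, with overlap. Near the top of the scale a percentile has little room to move, so for Lgals1 it understates differences in signal. From the lowest mean percentile, the order was TCRM sham, TCRM infarction, ENDO sham and ENDO infarction for S100a4, with the last 2 groups exchanged for S100a6, and only TCRM sham did not overlap its neighbour. For Anxa2 it was ENDO sham, TCRM sham, ENDO infarction and TCRM infarction, where only the first 2 groups overlapped. For Lgals1 it was ENDO sham, ENDO infarction, TCRM sham and TCRM infarction, where the first 3 groups overlapped in neighbouring pairs and the last did not overlap TCRM sham. The arrays of the populations differed in their overall distribution, and these levels were not tested against each other. For these genes too, the share of all probe sets equally apart between the populations was not computed.

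**Figure D4:**
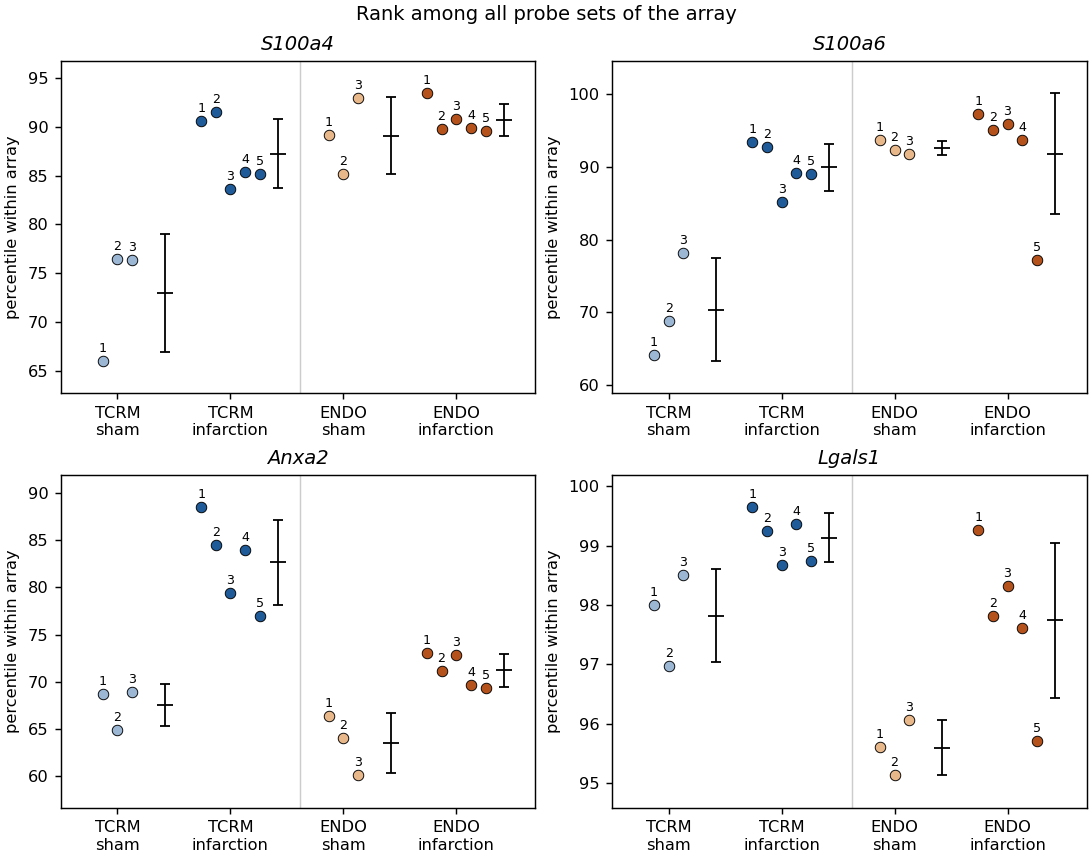
Percentile of each gene among all probe sets of an array (vertical axes) in the 4 groups (horizontal axes). Points are arrays with their number, and bars are the group mean and SD (n = 3 sham, n = 5 infarction). For S100a4 and S100a6 the TCRM sham arrays lie below all ENDO sham arrays, and for Anxa2 the TCRM infarction arrays lie above all ENDO arrays.

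Related genes could be read only where the authors' tables named them. Of the 43 genes on a list of CD4 effector and memory genes 9 were named, the 4 members among them. The authors had selected all 9 on infarction against sham in TCRM cells. Calls in TCRM cells therefore retest that choice, and nothing is read from them. Of the other 5, Cxcr3 (a chemokine receptor of Th1 cells; 1.17 ± 0.14) and Bhlhe40 (a transcription factor; 1.42 ± 0.20) rose in TCRM cells (log2, SE; limma adjusted p 0.000898 and 0.00277). Ccl5 (a chemokine), Nkg7 (a granule protein) and Prdm1 (the transcription factor Blimp-1) differed by 1.31 ± 0.35, 1.06 ± 0.24 and 0.85 ± 0.19 without passing (adjusted p 0.121, 0.0686 and 0.0616). The median of the 5 genes was 1.17, beside 0.00 over all tested probe sets. The test called 0.667% of all probe sets as higher in TCRM cells. Because this same contrast selected the genes, neither that share nor the median tells whether they stand out. With both infarction arrays 5 counted as sham, Cxcr3 and Bhlhe40 did not pass (limma adjusted p 0.218 and 0.210).

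In ENDO cells 0 of those 5 genes passed limma's test, beside 0.888% of all probe sets, where 3321 of all probe sets had an unadjusted p under 0.05. Nkg7 had the highest estimate at 0.49 ± 0.24 (log2, SE; adjusted p = 0.482), followed by Prdm1 at 0.26 ± 0.19 and Cxcr3 at 0.25 ± 0.14. Ccl5 differed by 0.06 ± 0.35 and Bhlhe40 by -0.01 ± 0.20, the last with a sign that changed under other settings. The median of the 5 was 0.25.

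The remaining lists held few named genes. The authors had selected S100a11-ps, Nrp1 and Trat1 on infarction against sham in TCRM cells. Their TCRM p-values below retest that contrast, so nothing is read from them. Of 17 S100 genes, 12 annexins and 10 galectins only the members were named, and 0 of 8 partners of annexin A2. A probe set annotated as the pseudogene S100a11-ps, looked at after its values were seen, read 7.33 to 7.63 (log2 signal) on the TCRM sham and 8.23 to 8.77 on the TCRM infarction arrays. Its TCRM means were 8.45 ± 0.20 (log2, SD, n = 5) and 7.45 ± 0.16 (SD, n = 3; limma adjusted p = 0.00576, and 0.224 with infarction arrays 5 as sham), and its ENDO groups differed by 0.00 ± 0.16 (log2, SE). By its symbol alone, signal from S100a11 itself cannot be told apart from it here. Nrp1, 1 of 9 galectin-1 ligands on T cells, differed by 1.36 ± 0.29 in TCRM cells (limma adjusted p = 0.0412, but 0.0930 with the TCRM arrays alone, up to 0.167 with 1 array left out, and 0.748 with infarction arrays 5 as sham, where the difference was 0.76) and by 0.10 ± 0.29 in ENDO cells. Trat1 (a T cell receptor adaptor), 1 of 16 naive and central memory genes, differed by -1.10 ± 0.27 in TCRM cells (adjusted p = 0.0963; 0.0898% of probe sets were called lower) and by -0.25 ± 0.27 in ENDO cells. It was also the only named gene of 11 T cell identity genes. It passed in TCRM cells after quantile normalization and with array weights (limma adjusted p 0.0482 and 0.0106), and its ENDO value turned to 0.023 with array weights and 0.24 with infarction array 5 as sham.

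Members such as S100a6, Anxa2 and Lgals1 are also abundant in myeloid and stromal cells. None of 12 myeloid, 9 stromal and endothelial or 5 erythroid markers was named, so their levels are not analysed here. Of 10 B cell markers Cd22 was named, and it rose by 1.17 ± 0.15 in TCRM cells (log2, SE; limma adjusted p = 0.00115, and 0.202 with infarction arrays 5 as sham) and differed by 0.23 ± 0.15 in ENDO cells, where its infarction arrays were all higher than its sham arrays, as for Nkg7, Prdm1 and 3.02% of tested probe sets. Of 8 CD8 and NK cell markers Nkg7 was named, with the values above. The authors had selected Cd22 and Nkg7 on infarction against sham in TCRM cells as well. Nothing is therefore read from their TCRM p-values. Per the labels the sort took CD4+ TCRβ+ cells at a purity above 98%, and the part of other cells in the members' values was not tested.

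The profile of the 4 genes was compared with that of the 158 other named genes that were tested. For each, Pearson's r was taken with the mean of the 4 genes over 16 arrays after subtracting the mean of each population, as a description without a test. The highest values were 0.935 for Maf (a transcription factor of helper T cells), 0.934 for H1f0 (a linker histone), 0.915 for Cited2 (a transcriptional coregulator), 0.907 for B4galnt4 (a glycosyltransferase) and 0.906 for Grn (the granulin precursor). Apart from the members, 0 of 28941 tested probe sets had a higher r than Maf and 1 had a higher r than H1f0. Of the 159 probe sets of these genes, 132 had been selected by the authors on the step from sham to infarction in TCRM cells, which these arrays share, and 27 on that in ENDO cells. The 5 genes named were all from the TCRM table.

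Within the ENDO arrays alone, the named genes most like the members were H1f0 (r = 0.948), Grn (r = 0.937) and Maf (r = 0.935), over 8 arrays. There 76, 123 and 140 of all tested probe sets had a higher r, so many unnamed transcripts shared this profile. H1f0 differed by 2.05 ± 0.23 in TCRM and 0.39 ± 0.23 in ENDO cells (log2, SE), Maf by 2.02 ± 0.23 and 0.19 ± 0.23, and Grn by 1.09 ± 0.21 and 0.18 ± 0.21. None of the 3 passed limma's test in ENDO cells (adjusted p 0.577, 0.848 and 0.846).

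**Figure D5:**
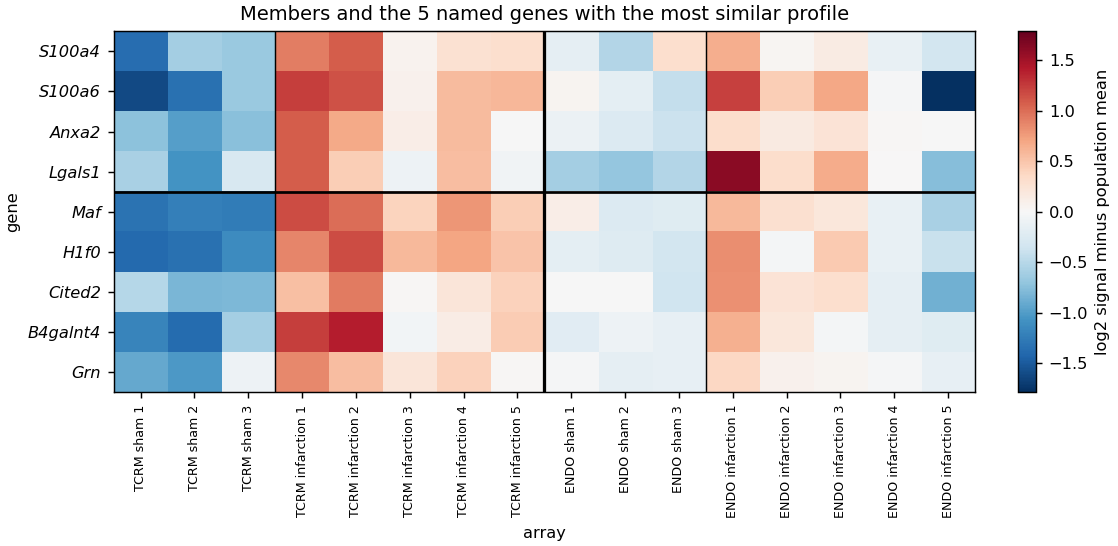
Log2 signal minus the mean of its population (colour) for the 4 members and the 5 named genes of most similar profile (vertical axis) on the 16 arrays (horizontal axis). All 9 genes are higher on average in TCRM infarction than in TCRM sham arrays, and on the ENDO side array 1 after infarction is high for the members while array 5 is low for S100a6 and Lgals1.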

How the data were processed

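The authors deposited log2 signal for 41345 probe sets on 16 Affymetrix whole transcript arrays, made after RNA preamplification. The submitters' processing notes name Affymetrix Expression Console and the Transcriptome Analysis Console. How arrays were scaled and summarised, and tool versions, are not given in the sources consulted. Signal over background is not known, and precision is limited by the number of arrays. The authors also deposited 2 tables of selected probe sets with log2 averages, fold, p-value and false discovery rate, written with decimal commas. These tables gave the symbols: of 468 probe sets 270 had 1 symbol, 18 several and 180 none.

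Groups follow the titles. Testing was limited to the 28941 probe sets, all 4 members among them, with a mean at or above the 30th percentile (log2 4.72). limma 3.58.1 in R 4.3.3 estimated 4 group means from the 16 arrays together, with 2-sided p-values adjusted by Benjamini-Hochberg over all probe sets and a threshold of 0.05. Exact permutation tests and correlations used scipy 1.17.1 and numpy 2.4.6, and figures matplotlib 3.10.9. The fit was tested on simulated data. Replicates are separate animals per the series design. ENDO and TCRM cells came from the same animals, but no label says that numbers match mice. In 8 same-numbered pairs, correlations of the deviations from group means ran from -0.089 to 0.077, and pairs were not assumed.

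The members and the 13 gene lists were chosen with earlier results of these data known. Named genes are the members, list genes with a symbol of their own, and the 5 named genes (3 on ENDO arrays alone) with the highest correlation to the members' mean, leaving out gene models and pseudogenes. Alternatives were the filter, scaling, array weights, the arrays of 1 population, the source name groups, a replicate block and each array left out. Those of the exact tests, of the gene profiles and the quantile scaling of correlations were added after seeing the data.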

Additional observations from a re-analysis of the deposited data

Results flagged for a closer look

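In the groups of 5 arrays, 44 sets of values were searched for an array far from the other 4, and 3 were found, where chance gives about 1 in 20. For S100a6 ENDO infarction array 5 stood at percentile 77.2 while the other 4 stood at 93.7 to 97.3, a gap of 0.822 of the range. Prdm1 was 6.62 (log2 signal) on ENDO infarction array 1 and 6.31 to 6.36 on the others, a gap of 0.844 of the range. Nkg7 was 8.32 (log2 signal) on the same array and 7.50 to 7.66 on the others, a gap of 0.808 of the range.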

How the results depend on the processing

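The ENDO differences of the 4 members kept a limma adjusted p above 0.05 under every alternative run, except Lgals1 with array weights (1.10, adjusted p = 0.0449). With arrays left out in turn they ranged from 0.00 to 0.42 for S100a4, 0.01 to 0.76 for S100a6, 0.32 to 0.46 for Anxa2 and 0.66 to 1.26 for Lgals1. As percentiles, S100a6 turned to -0.733 (exact permutation p = 1) and Anxa2 stood at 7.71 (exact p = 0.0179). In the exact test Anxa2 ranged from 0.32 to 0.46 with arrays left out, and Lgals1 was 1.30 with infarction array 5 as sham (exact p = 0.0286). TCRM minus ENDO response was 0.67 for Anxa2 after quantile normalization, and 0.34 for S100a6 and -0.30 for Lgals1 with both infarction arrays 5 as sham, and for Lgals1 it ranged from -0.23 to 0.37 with arrays left out.

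Correlations with Lgals1 after quantile normalization were 0.626, 0.745 and 0.775 for S100a4, S100a6 and Anxa2. With arrays left out they ranged from 0.541 to 0.959, 0.738 to 0.946 and 0.790 to 0.903. S100a4 with Anxa2 ranged from 0.116 to 0.911 and S100a6 with Anxa2 from 0.379 to 0.934.

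Against 219 probe sets called in TCRM and 257 in ENDO cells, quantile normalization called 130 and 448, each population alone 118 and 0 (2333 at an unadjusted p under 0.05 in ENDO cells), and array weights 377 and 1529. Infarction arrays 5 as sham called 0 in TCRM cells (limma; 2051 at an unadjusted p under 0.05). Arrays left out gave 113 to 328 and 51 to 640, the lowest without TCRM sham 2 and ENDO sham 1 and the highest without ENDO infarction 5.

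ENDO differences near 0 changed sign for Bhlhe40 (0.027 with median centring, 0.039 with array weights, 0.15 with infarction 5 as sham), Trat1 (0.023 with weights, 0.24 with infarction 5 as sham) and S100a11-ps (-0.060 after quantile normalization). With arrays left out they ranged from -0.068 to 0.072 for Bhlhe40, -0.040 to 0.29 for Nrp1, -0.13 to 0.22 for Ccl5 and -0.079 to 0.073 for S100a11-ps. The causes were not tested.

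With the replicate number as a random block the consensus correlation was 0.0173, the ENDO difference of Lgals1 was 0.98 (limma adjusted p = 0.343) and that of Anxa2 0.39 (0.487), and no member's call changed. As a fixed block only the difference of responses could be estimated without mixing mice and operation, and Lgals1 kept 0.05 there. Array number and unknown scaling limit all values.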
